A study of Homo sapiens with 12 samples.

Results

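The genes of the vascular endothelial growth factor (VEGF) system were followed in tumor-associated macrophages (TAMs) whose partner cancer cells overexpressed MMP28, and in which IL-8 or VEGFA was neutralized. The members were the 9 genes of the deposited table named VEGFA, VEGFB, VEGFC, PGF, FLT1, KDR, FLT4, NRP1 and NRP2, out of 58735 genes in all. The TAMs came from THP-1, a human acute monocytic leukemia line, turned into macrophages with the phorbol ester PMA. They shared their medium with AsPC-1 pancreatic cancer cells held in the other chamber of a coculture system. Each of the 4 groups held 3 libraries. AsPC-1 cells of the control group carried the empty lentiviral vector, and those of the other groups carried the MMP28 lentivirus. Anti-IL-8 and anti-VEGFA TAMs had OE-MMP28 partners and a neutralizing antibody against the named protein. Neither the labels nor the methods say whether the sequenced control and OE-MMP28 cultures received a control antibody, so that an effect of neutralization and one of adding any antibody cannot be told apart. The labels also do not say whether the 3 libraries of a group came from separate cultures, and the p-values below measure the spread between these libraries only.

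The ligands VEGFA, VEGFB, VEGFC and PGF are secreted proteins that bind receptor tyrosine kinases. FLT1 binds VEGFA, VEGFB and PGF. KDR, the main signalling receptor of endothelial cells, binds VEGFA, and FLT4 binds VEGFC and is best known from lymphatic vessels. NRP1 and NRP2, the neuropilins, have no kinase domain and act as coreceptors for VEGFs and for class 3 semaphorins. Monocytes and macrophages are known to carry FLT1, through which VEGFA and PGF attract them, and are themselves a source of VEGFA in tumors. A neutralizing antibody against VEGFA binds the secreted protein and blocks it, and does not act on the transcript, so the question here was whether the TAMs changed their own VEGF transcripts when the ligand was blocked.

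Libraries held 15852346 to 18701195 counts, and 3 counts in a library corresponded to 0.16 to 0.195 CPM (counts scaled to a common library total, with TMM factors). Mitochondrial genes took 6.92% to 12.3% of the counts in 11 libraries and 17.8% in anti-VEGFA replicate 2. Of 12 macrophage markers, 11 had over 10 counts in every library, and their summed level was 3020 to 4020 CPM. The exception was CD68, with at most 5 counts. The epithelial markers that would show AsPC-1 RNA summed to 7.6 to 15.6 CPM. CLDN7 had 68 to 168 counts, MUC1 28 to 65, KRT7 4 to 22 and ELF3 1 to 15. The others had at most 10, and EPCAM alone was at 0 counts in all 12 libraries. MMP28 was at 0 in every library as well. MMP28 was overexpressed in the AsPC-1 cells, which were not sequenced here, so it cannot check the labels. Endothelial markers were mixed. CDH5, CLDN5, EMCN and SOX17 reached at most 5 counts and TEK at most 10, and VWF, ERG and ROBO4 had 7 to 50. TIE1 had 519 to 1946 counts, ESAM 281 to 705 and EGFL7 173 to 451. PECAM1, which myeloid cells also express, had 5433 to 11015 counts. In these bulk libraries, fewer cells expressing a gene and less RNA per cell cannot be told apart.

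On the FPKM scale, which divides counts by gene length and library size, the 9 members fell into 2 sets. The length was that of all annotated exons of a gene together, 14431 bases for VEGFA with 32 transcripts and 1545 for VEGFB with 4. It can exceed the length of the transcripts present, by an amount that differs between genes. The order and shares given here hold for this scale only and were not corrected for base composition. VEGFA was the most abundant, with a mean level of 54.3 FPKM and a range of 45.9 to 66.0 FPKM over the 12 libraries. It ranked 717 among all genes of the table. NRP1 followed at 39.4 FPKM (31.0 to 48.3 FPKM). VEGFC and VEGFB were near each other, at 19.4 FPKM (16.6 to 25.8) and 19.2 FPKM (10.8 to 27.5), and their ranges overlapped. FLT1 and NRP2 were lower, at 4.46 FPKM (3.61 to 5.24) and 4.32 FPKM (3.19 to 5.64), again with overlapping ranges. Thus VEGFA made up 52.8% to 63.3% of the summed FPKM of the 4 ligands, and NRP1 80.3% to 84.2% of that of the 5 receptors. Among the kinase receptors, FLT1 supplied 97.5% to 98.9% of the FPKM in every library.

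KDR, FLT4 and PGF were at the limit of detection. KDR had 4, 8 and 13 counts in control, 12, 6 and 5 in OE-MMP28, 8, 6 and 8 in anti-IL-8, and 6, 4 and 3 in anti-VEGFA libraries. PGF had 15, 5 and 3 counts in control, 3, 1 and 9 in OE-MMP28, 7, 5 and 7 in anti-IL-8, and 6, 0 and 16 in anti-VEGFA libraries. FLT4 had 0 to 6 counts in any library. These 3 genes failed edgeR's filter on low counts, their groups overlapped, and a difference between groups was not detectable at this depth. A count of 0 allows up to 0.19 CPM of PGF in anti-VEGFA replicate 2. The other 6 members had at least 288 counts in every library and were tested, among 16046 genes in all.

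**Figure D1:**
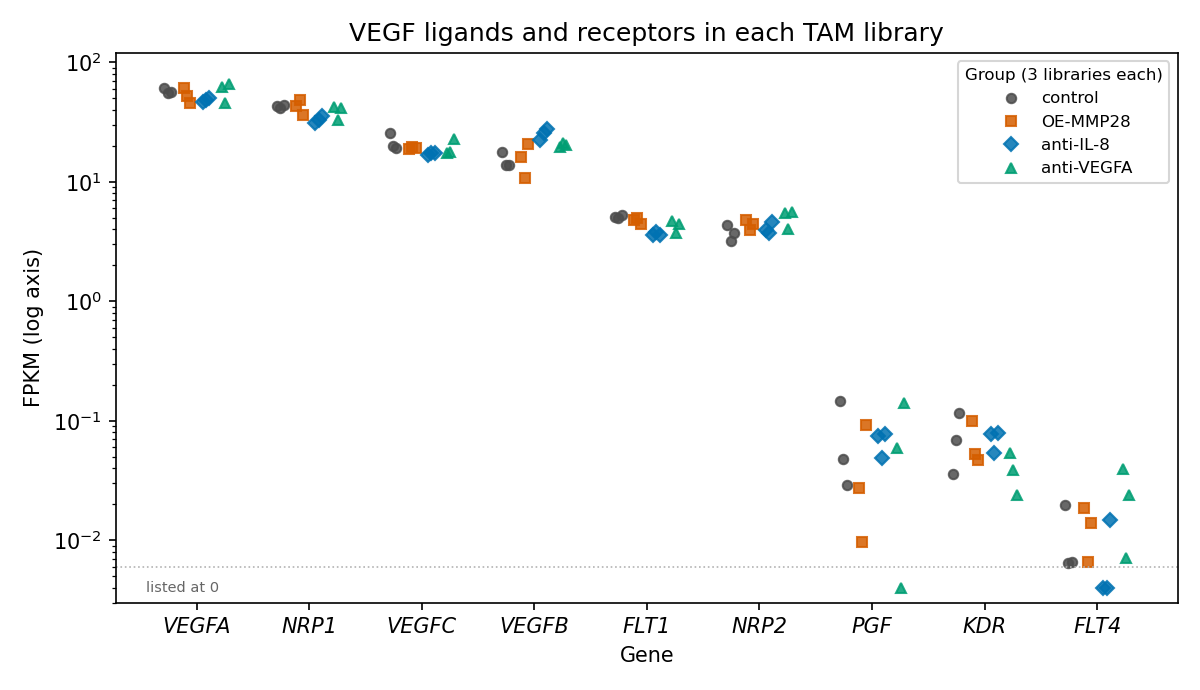
FPKM of the 9 VEGF ligands and receptors in each of the 12 TAM libraries, on a log axis, with genes in order of their mean level. Colours and symbols mark the 4 groups of 3 libraries. VEGFA, NRP1, VEGFC, VEGFB, FLT1 and NRP2 lie above 3 FPKM in every library, and PGF, KDR and FLT4 lie below 0.2 FPKM, with points under the dotted line listed at 0.

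VEGFA, on chromosome 6 (chr6:43770184-43786487, GRCh38, plus strand), was measured at 881, 810 and 825 CPM in control, 883, 764 and 674 CPM in OE-MMP28, 681, 713 and 725 CPM with anti-IL-8, and 923, 668 and 966 CPM with anti-VEGFA. The anti-VEGFA group thus held both the highest and the lowest library of the 12. Group means ran from 853 CPM ± 161 (SD, n = 3) with anti-VEGFA through 839 ± 37.6 in control and 774 ± 105 in OE-MMP28 to 707 ± 22.9 with anti-IL-8. Neighbours in that order overlapped, and of the outer pairs all 3 anti-IL-8 libraries lay below all 3 control libraries. The low anti-VEGFA library was replicate 2, the one with 17.8% mitochondrial counts. Fits without this library and fits with the mitochondrial share as a covariate are given below, and the cause of its low level was not tested.

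VEGFB, a ligand of FLT1 alone among the kinase receptors, lies on chromosome 11 (chr11:64234538-64238793, plus strand). Its level was 27.7, 21.7 and 21.7 CPM in control, 25.3, 16.8 and 32.6 CPM in OE-MMP28, 35.1, 40.6 and 42.2 CPM with anti-IL-8, and 30.9, 32.7 and 31.6 CPM with anti-VEGFA. All 3 anti-IL-8 libraries were above every other library, and the anti-VEGFA libraries were above control but overlapped OE-MMP28, which had the widest spread (24.9 CPM ± 7.88, SD, n = 3). VEGFC, the ligand of FLT4, lies on chromosome 4 (chr4:176683538-176792727, minus strand). It stood at 63.1, 49.1 and 47.1 CPM in control and at 46.5, 47.8 and 47.2 CPM in OE-MMP28. With anti-IL-8 it was 40.5, 43.1 and 42.3 CPM, and with anti-VEGFA 43.2, 43.1 and 56.0 CPM. The anti-IL-8 libraries were below those of control and OE-MMP28, and 1 library each of control and anti-VEGFA stood above the rest of its group.

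FLT1, the kinase receptor of these TAMs, lies on chromosome 13 (chr13:28300344-28495145, minus strand). It was measured at 64.4, 63.8 and 67.2 CPM in control and at 60.4, 63.7 and 56.7 CPM in OE-MMP28. With anti-IL-8 it was 45.6, 48.6 and 45.2 CPM, and with anti-VEGFA 60.1, 47.4 and 56.4 CPM. The control libraries were the highest, though the nearest OE-MMP28 library was only just below them, and the anti-IL-8 libraries were below both. Gene counts pool the secreted and membrane-bound forms of FLT1, which act differently, and 9 transcripts are annotated for it in GENCODE 29. NRP1, on chromosome 10 (chr10:33177492-33336262, minus strand), stood at 503, 485 and 521 CPM in control, 501, 563 and 424 CPM in OE-MMP28, 359, 384 and 405 CPM with anti-IL-8, and 492, 385 and 482 CPM with anti-VEGFA. Here too the anti-IL-8 libraries were below control and OE-MMP28. NRP2, on chromosome 2 (chr2:205681990-205798133, plus strand), had 61.0, 44.9 and 52.9 CPM in control, 67.3, 55.6 and 62.0 CPM in OE-MMP28, 54.9, 52.2 and 63.4 CPM with anti-IL-8, and 77.5, 56.5 and 79.6 CPM with anti-VEGFA. All groups of NRP2 overlapped, and its 2 highest libraries were anti-VEGFA replicates 1 and 3.

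**Figure D2:**
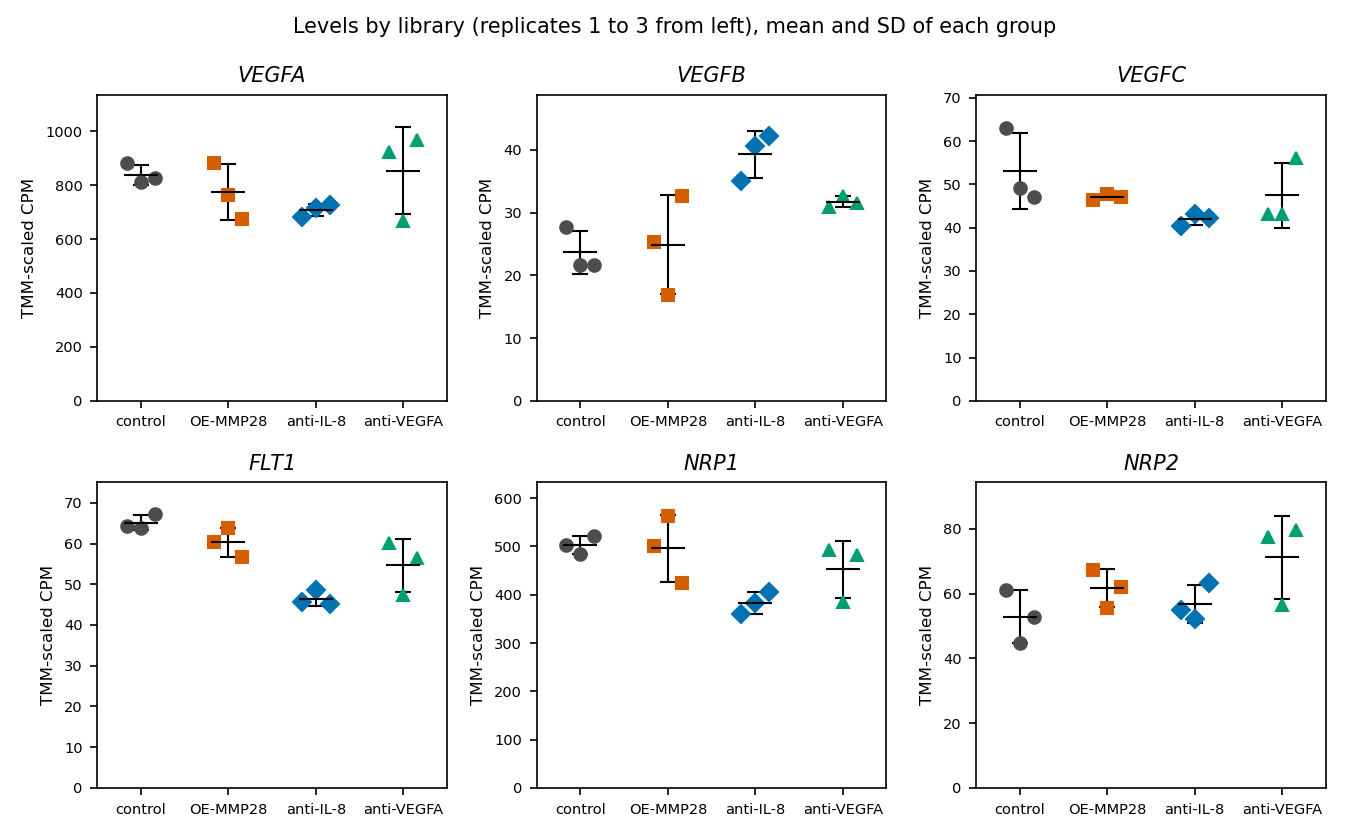
TMM-scaled CPM of the 6 tested members in every library, with replicates 1 to 3 of a group from left to right, the group mean as a horizontal line and error bars of 1 SD (n = 3). Anti-IL-8 libraries are the highest for VEGFB and lie below control and OE-MMP28 for VEGFC, FLT1 and NRP1, whereas anti-VEGFA replicate 2 is the lowest of its group for VEGFA, FLT1, NRP1 and NRP2.

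The promoters of VEGFB and FLT1 are shown because these 2 genes, a ligand and its receptor, were called in opposite directions in anti-IL-8 against control. Those calls, given below, ended when GC content and gene length were fitted as offsets. Both promoters are RefSeq sequences of GRCh38.p14, given 5′ to 3′ on the strand of the gene. They hold the part of the 250 bases before the RefSeq start that lies outside the gene as annotated in GENCODE 29, which starts further upstream, and so have 204 and 233 bases. Capitals mark GGGCGG or its reverse complement CCGCCC, the core of the GC box bound by Sp1.

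VEGFB, chr11:64234334-64234537, plus strand: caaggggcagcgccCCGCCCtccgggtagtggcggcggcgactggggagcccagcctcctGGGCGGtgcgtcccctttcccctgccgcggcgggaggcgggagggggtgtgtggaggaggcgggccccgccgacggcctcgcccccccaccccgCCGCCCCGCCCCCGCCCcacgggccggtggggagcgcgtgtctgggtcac

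FLT1, chr13:28495146-28495378, minus strand: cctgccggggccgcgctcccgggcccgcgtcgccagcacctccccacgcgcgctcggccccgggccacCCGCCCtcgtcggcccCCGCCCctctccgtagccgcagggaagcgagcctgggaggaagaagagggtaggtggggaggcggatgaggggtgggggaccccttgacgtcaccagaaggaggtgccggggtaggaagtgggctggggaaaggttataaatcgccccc

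In the whole 250 bases before the RefSeq start, the motif matched 6 times for VEGFB, 3 times for FLT1, 2 times for VEGFC and KDR, 3 times for NRP2, and 2 and 3 times in the 2 windows listed for PGF, counting both strands and overlapping matches. It was found in 42.6% of 35116 promoters of the same length. The core of the hypoxia response element was searched as ACGTG and, in its other common spelling, as GCGTG. The first was not in the window of any of these 5 genes or of PGF, and 18.5% of all promoters held it. The second matched 1 time each for VEGFB, VEGFC and FLT1 and in 1 of the PGF windows, against 32.2% of all promoters with a match. TGACTCA, the AP-1 site, had no match in these windows and one in 4.2% of all promoters. VEGFA, NRP1 and FLT4 had no entry in the promoter table.

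Compared with control, TAMs next to OE-MMP28 cells showed no change in a VEGF ligand or receptor that passed the test. With edgeR's quasi-likelihood test and Benjamini-Hochberg adjustment over all 16046 genes, 0 of the 6 tested members were called at an adjusted p of 0.05. Of all genes tested, 3.16% were (0.523% higher and 2.64% lower). None had an unadjusted p under 0.05 either (14.5% of all genes), and DESeq2 and limma's voom called none. The log2 fold change of VEGFA was -0.12 ± 0.15 (SE, adjusted p = 0.78), with a 95% confidence interval of -0.42 to 0.19. NRP2 had the largest estimate, 0.22 ± 0.15 (adjusted p = 0.56). FLT1, at -0.11 ± 0.12 (adjusted p = 0.73), was the member whose groups did not overlap, as did not those of 21.3% of all genes.

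TAMs with VEGFA neutralized were compared with the OE-MMP28 group, and no VEGF ligand or receptor passed the test. 0 members were called by edgeR's quasi-likelihood test, against 0.343% of all genes (0.312% higher and 0.0312% lower), 0 had an unadjusted p under 0.05, against 18.8%, and the groups of all 6 tested members overlapped. DESeq2 and limma's voom called none. The level of VEGFA itself was 1.1 times that of OE-MMP28, a log2 fold change of 0.14 ± 0.15 (SE, adjusted p = 0.63) with a 95% confidence interval of -0.17 to 0.45. Without anti-VEGFA replicate 2 the VEGFA value was 0.29 (adjusted p = 0.23). Among the receptors of VEGFA, FLT1 had a log2 fold change of -0.14 ± 0.12 (adjusted p = 0.54) and NRP1 -0.13 ± 0.14 (adjusted p = 0.62). NRP2 had 0.21 ± 0.15 (adjusted p = 0.47), and VEGFC 0.01 ± 0.14 (adjusted p = 0.98). VEGFB had the largest estimate, 0.35 ± 0.18 (adjusted p = 0.31). It was 0.59 without OE-MMP28 replicate 3 (adjusted p = 0.044), the 1 library whose removal gave a call of a member in this comparison. That fit called 8.48% of all genes. The intervals show how much change the libraries leave room for: they reached from -0.39 to 0.11 for FLT1 and from -0.03 to 0.73 for VEGFB.

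Neutralization of IL-8, set against the same OE-MMP28 libraries, gave larger estimates for VEGFB, FLT1 and NRP1, none of them past the adjusted threshold. VEGFB had a log2 fold change of 0.66 ± 0.18 (SE, unadjusted p = 0.0021, adjusted p = 0.063). FLT1 stood at -0.37 ± 0.12 (unadjusted p = 0.0057, adjusted p = 0.071) and NRP1 at -0.37 ± 0.14 (unadjusted p = 0.013, adjusted p = 0.089). In this comparison edgeR called 0% of all genes, although 29.3% had an unadjusted p under 0.05. These 3 members were among the latter, and the groups of 4 members, VEGFC included, did not overlap, against 29% of all genes. DESeq2 called VEGFB, FLT1 and NRP1, with adjusted p-values of 0.015, 0.027 and 0.039, in a fit that called 2259 of all 16046 genes. Limma's voom called none of the members and 0% of all genes. Without OE-MMP28 replicate 3 the same 3 members were called by edgeR, with adjusted p-values of 0.0058, 0.025 and 0.019, beside 25% of all genes. VEGFB alone was also called without anti-VEGFA replicate 2 (adjusted p = 0.046), beside 7.08% of all genes. With GC content and gene length fitted as offsets, the estimates shrank to 0.1 for VEGFB (adjusted p = 0.83), -0.15 for FLT1 (0.58) and -0.126 for NRP1 (0.69). VEGFA was at -0.13 ± 0.15 (adjusted p = 0.58) and NRP2 at -0.12 ± 0.15 (adjusted p = 0.63).

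The 2 antibodies were also compared directly, which is the test of whether their effects on a member differed. By edgeR's quasi-likelihood test, 0 members were called with anti-VEGFA against anti-IL-8, against 0.199% of all genes (0.193% higher and 0.00623% lower), and 1 had an unadjusted p under 0.05, against 15%. That member was NRP2, higher with anti-VEGFA in the estimate (0.33 ± 0.15, unadjusted p = 0.045, adjusted p = 0.32). VEGFB was lower, at -0.31 ± 0.18 (adjusted p = 0.43), and was the member whose groups did not overlap (20.9% of all genes). VEGFA had a log2 fold change of 0.27 ± 0.15 (adjusted p = 0.39), with a 95% confidence interval of -0.04 to 0.58. DESeq2 and limma's voom called none.

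**Figure D3:**
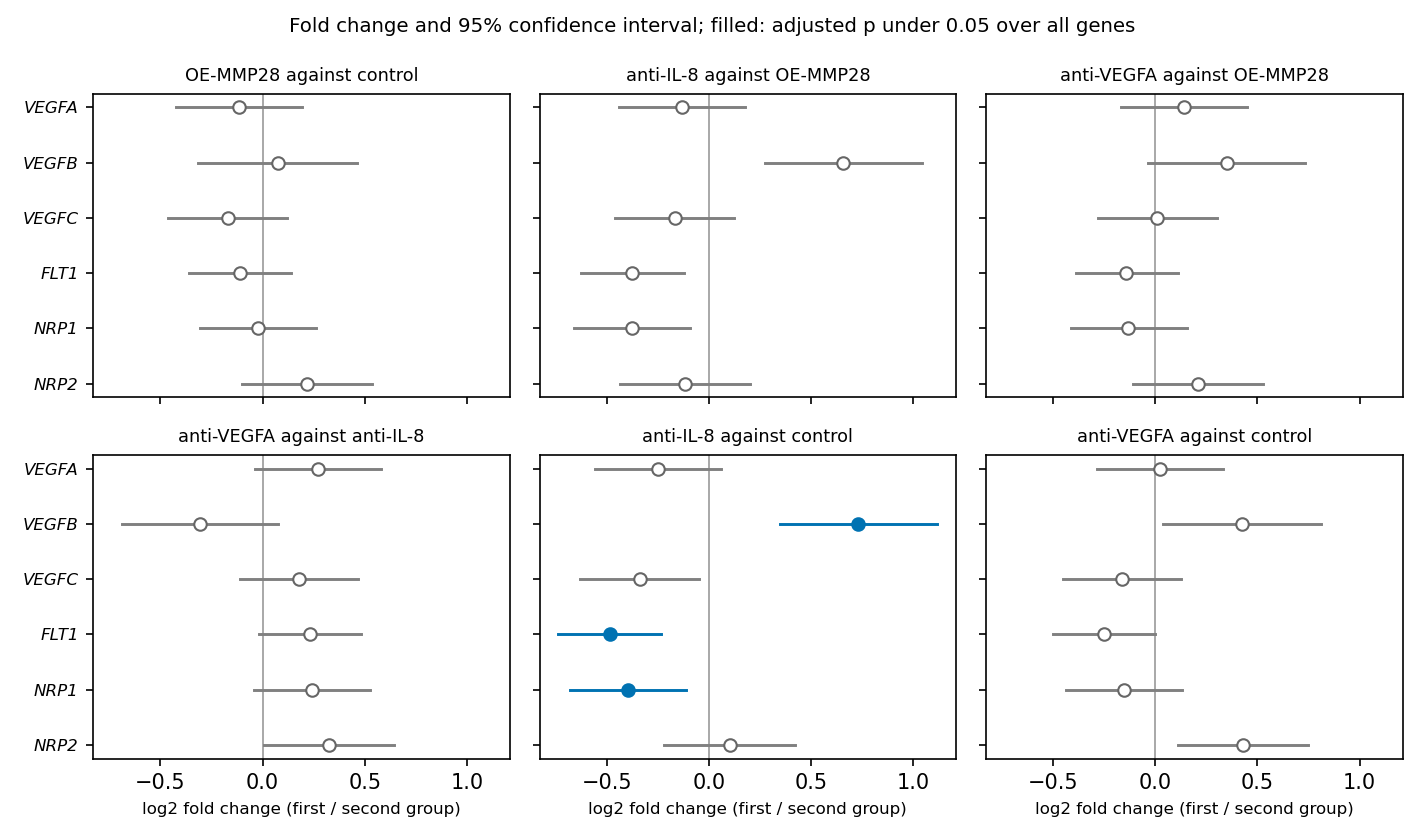
Log2 fold change of the 6 tested members in the 6 comparisons, with 95% confidence intervals from edgeR's fit of all 12 libraries. Filled points have an adjusted p under 0.05 over all 16046 genes, and comparisons share libraries. The filled points are VEGFB (0.73), FLT1 (-0.49) and NRP1 (-0.39), all in anti-IL-8 against control.

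Set against control, each antibody group differed in the MMP28 of the partner cells as well as in the antibody, and both comparisons share the control libraries. With anti-IL-8, VEGFB rose and FLT1 and NRP1 fell. VEGFB was 1.66 times the control level (log2 fold change 0.73 ± 0.18, SE, adjusted p = 0.012, edgeR's quasi-likelihood test). FLT1 was 0.714 times it (-0.49 ± 0.12, adjusted p = 0.01) and NRP1 0.761 times it (-0.39 ± 0.14, adjusted p = 0.046). Thus 3 of the 6 tested members were called, in a comparison in which 20.7% of all genes tested were, 9.77% higher and 10.9% lower. The share over all genes was 7.94% to 11.1% without any 1 of the control libraries or without anti-IL-8 replicate 1 or 3, and 39.8% in the fit of these 2 groups alone, which also called VEGFC (adjusted p = 0.018). All 3 calls ended with GC content and gene length offsets, with values given below. An unadjusted p under 0.05 was found for 4 members, against 35.9% of all genes, and the groups of 5 members did not overlap, against 47.8%. VEGFC was at -0.34 ± 0.14 (adjusted p = 0.087) and VEGFA at -0.25 ± 0.15 (adjusted p = 0.24), with all 3 libraries below control in both. VEGFB lost its call without control replicate 2 (adjusted p = 0.06), control replicate 3 (0.061) or anti-IL-8 replicate 3 (0.051). FLT1 lost it without anti-IL-8 replicate 1 (adjusted p = 0.066) or 3 (0.055). NRP1 kept its call in 4 of the 12 fits that left out 1 library, with adjusted p-values of 0.026 to 0.22 over the 12. It lost it without any 1 of the control or anti-IL-8 libraries, OE-MMP28 replicate 1 or anti-VEGFA replicate 3. It was also not called with DESeq2's size factors (adjusted p = 0.051), no filter on low counts (0.059), the replicate number as a block (0.053) and FPKM values (0.053 and 0.054). In the same comparison 4 of 11 tested macrophage markers were called, 3 of them higher, and 4 of 7 tested endothelial markers, 2 of them higher. Their part in the result was not tested.

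With anti-VEGFA against control, 0 members were called, in a comparison in which 11% of all genes were, 5.6% higher and 5.37% lower. That share was 4.02% to 5.8% without any 1 of the control libraries and 6.7% without anti-VEGFA replicate 3. An unadjusted p under 0.05 was found for 3 members, against 27% of all genes. NRP2 had the largest estimate, 1.35 times control (log2 fold change 0.43 ± 0.15, SE, adjusted p = 0.077, edgeR's quasi-likelihood test), and was called without anti-VEGFA replicate 2 (0.58, adjusted p = 0.021). VEGFB was at 0.42 ± 0.18 (adjusted p = 0.14), and was called without OE-MMP28 replicate 2 (0.42, adjusted p = 0.042). The shares called over all genes were 8% without anti-VEGFA replicate 2 and 15.7% without OE-MMP28 replicate 2. FLT1 was at -0.25 ± 0.12 (adjusted p = 0.18). The groups of VEGFB and FLT1 did not overlap, as did not those of 34.3% of all genes. VEGFA was at 0.024 ± 0.15 (adjusted p = 0.94). DESeq2 and limma's voom called none.

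The members differ in base composition, and the libraries differed in how levels followed it. GC content was that of the longest annotated transcript of a gene. For VEGFB it was 66.7% G and C, and for NRP1 and FLT1 44.7% and 45.1%. Across genes, the deviation of a library's log2 level from the mean of all libraries correlated with GC content at r = -0.131 to -0.306 in control and 0.248 to 0.503 with anti-IL-8. With anti-VEGFA it was 0.13 to 0.271, and in OE-MMP28 it was -0.28, -0.661 and 0.031. Genes are not independent replicates, so no test is attached to these values. In anti-IL-8 against control, the 4012 genes of lowest GC content had a median log2 fold change of -0.31 and the 4012 of highest GC content one of 0.35. In anti-IL-8 against OE-MMP28 these medians were -0.36 and 0.38, and in anti-VEGFA against OE-MMP28 -0.18 and 0.31. When GC content and gene length were fitted as offsets for each library, a step chosen after values were seen, VEGFB went from 0.73 to 0.12 (adjusted p = 0.53), FLT1 from -0.49 to -0.22 (adjusted p = 0.1) and NRP1 from -0.39 to -0.12 (adjusted p = 0.42). VEGFC, at 51.4% GC, instead went from -0.34 to -0.50 and was called (adjusted p = 0.015). NRP2 with anti-VEGFA against control stood at 0.41 and was called as well (adjusted p = 0.047). In anti-VEGFA against OE-MMP28 the offsets moved VEGFA to -0.065 (adjusted p = 0.88) and VEGFB to -0.10 (adjusted p = 0.77), and no member was called. All 6 antibody libraries had a correlation above 0 and all 3 control libraries one below 0, so that a part of the result that follows base composition and a part that follows the group cannot be told apart from these libraries alone.

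Of the signalling proteins that act below the VEGF receptors (phospholipase C, PI3 kinase, Ras and MAP kinase, calcineurin and others), 65 of 68 listed genes were tested. None was called with OE-MMP28 against control, with anti-VEGFA against OE-MMP28 or with anti-IL-8 against OE-MMP28, and 6, 20 and 31 of them, respectively, had an unadjusted p under 0.05, against 14.5%, 18.8% and 29.3% of all genes. DESeq2 called 0, 2 and 21, beside 665, 429 and 2259 of all 16046 genes, and limma's voom none. Without OE-MMP28 replicate 3 edgeR called 12 and 33 of the list in the last 2 comparisons, beside 8.48% and 25% of all genes. In anti-IL-8 against control, 5 were higher and 13 lower, where 9.77% of all genes were higher and 10.9% lower, with a median log2 fold change over the list of -0.008 beside -0.02 over all genes. The lower ones included PIK3CG (-1.28 ± 0.25, SE, adjusted p = 0.0029 in edgeR's quasi-likelihood test), a catalytic subunit of PI3 kinase, and PIK3R3 (-1.09 ± 0.23, adjusted p = 0.0038), a regulatory one. PLA2G4A, which frees arachidonic acid, was at -1.24 ± 0.16 (adjusted p = 6.2e-05), and PTGS2, the cyclooxygenase that uses it, at -1.25 ± 0.19 (adjusted p = 0.00028). PTGS2 was the 1 gene of the list called between the antibodies, higher with anti-VEGFA (1.26 ± 0.19, adjusted p = 0.0065). It was not called there without anti-IL-8 replicate 1 (adjusted p = 0.093) or 3 (0.08) or anti-VEGFA replicate 3 (0.054). With GC and length offsets the count in anti-IL-8 against control was 8 in place of 18, beside 13.7% of all genes. Without control replicate 2 or anti-IL-8 replicate 1 it was 6, beside 8.13% and 7.94% of all genes. In anti-VEGFA against control 6 were called, beside 11% of all genes, 2 higher and 4 lower, among them PIK3CB (-0.72 ± 0.13, adjusted p = 0.0023) and PLA2G4A (-0.74 ± 0.16, adjusted p = 0.0063). That count was 2 without any 1 of the control libraries and 12 without OE-MMP28 replicate 2. Over all genes those fits called 4.02% to 5.8% and 15.7%.

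Neuropilins also work with semaphorins, plexins and integrins, and 17 of 20 such partners were tested. None was called in the 3 comparisons that used OE-MMP28 as one side or in the comparison of the antibodies by edgeR's quasi-likelihood test. In OE-MMP28 against control 2 had an unadjusted p under 0.05, against 14.5% of all genes. These numbers were 7 and 29.3% in anti-IL-8 against OE-MMP28, 4 and 18.8% in anti-VEGFA against OE-MMP28, and 4 and 15% between the antibodies. DESeq2 called 4 in anti-IL-8 against OE-MMP28, beside 2259 of all 16046 genes. It called 1 each in anti-VEGFA against OE-MMP28 (429 of all genes) and anti-VEGFA against anti-IL-8 (252). Limma's voom called none. Without OE-MMP28 replicate 3 edgeR called 5 in anti-IL-8 against OE-MMP28 (25% of all genes) and 3 in anti-VEGFA against OE-MMP28 (8.48%). With GC and length offsets edgeR called 1 in OE-MMP28 against control (5.62% of all genes). In anti-IL-8 against control, where 20.7% of all genes were called, 4 were higher and 2 lower, including the semaphorin receptor PLXNA1 (0.68 ± 0.16, adjusted p = 0.0091) and the receptor of hepatocyte growth factor, MET (-0.76 ± 0.20, adjusted p = 0.015). In anti-VEGFA against control, where 11% of all genes were called, 4 were higher and none lower, including PLXNA1 (0.67 ± 0.16, adjusted p = 0.015) and PLXNA3 (0.63 ± 0.15, adjusted p = 0.011). With GC and length offsets these counts were 1 and 2, and PLXNA1 was called in the first (adjusted p = 0.03) and not in the second (0.08). Without control replicate 2 they were 1 and 0, and the first was 1 as well without control replicate 3 or anti-IL-8 replicate 1 or 3. PLXNA1 was also lost in the first without anti-IL-8 replicate 3 (adjusted p = 0.052) and in the second without control replicate 3 (0.054) or anti-VEGFA replicate 1 (0.062). MET was lost with the offsets (adjusted p = 0.056) and without control replicate 1 (0.058), control replicate 3 (0.054) or anti-IL-8 replicate 1 (0.11), and PLXNA3 without control replicate 1 (0.06) or 2 (0.071).

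VEGFA is a classic target of the hypoxia-inducible factors, so the oxygen sensors and other hypoxia-induced genes were read beside it. Of 14 tested genes of oxygen sensing, none was called by edgeR's quasi-likelihood test in the comparisons with OE-MMP28 or between the antibodies. In OE-MMP28 against control 2 had an unadjusted p under 0.05, against 14.5% of all genes. These numbers were 2 and 29.3% in anti-IL-8 against OE-MMP28, 1 and 18.8% in anti-VEGFA against OE-MMP28, and 1 and 15% between the antibodies. DESeq2 called 1 in anti-IL-8 against OE-MMP28 (2259 of all 16046 genes) and 1 between the antibodies (252), and limma's voom none. In anti-IL-8 against control, where 20.7% of all genes were called, 1 was higher and 3 lower, among them HIF1A (-0.83 ± 0.17, adjusted p = 0.0041), the oxygen-regulated subunit, and the count was 1 without any 1 of the control libraries or without anti-IL-8 replicate 1 or 3. HIF1A was at 154 CPM with anti-IL-8 and 275 CPM in control, and remained called with GC and length offsets (-0.51, adjusted p = 0.011). In anti-VEGFA against OE-MMP28, HIF1A was at 0.001 ± 0.17 (adjusted p = 1). Of 29 tested hypoxia-induced genes, 2 were called in OE-MMP28 against control, in opposite directions, where 3.16% of all genes were called. PFKFB4, a regulator of glycolysis, fell from 69.02 CPM ± 0.914 (SD, n = 3) to 37.4 ± 4.26 (log2 fold change -0.89 ± 0.13, adjusted p = 0.00019), and VLDLR, a lipoprotein receptor, rose from 56.0 ± 1.09 to 95.02 ± 10.3 CPM (0.76 ± 0.14, adjusted p = 0.004). Both calls were made in all 12 fits with 1 library left out. The list had 0 calls in anti-VEGFA against OE-MMP28, where 0.343% of all genes were called. An unadjusted p under 0.05 was found there for 6 of its genes, against 18.8% of all genes. DESeq2 gave 1 call, beside 429 of all 16046 genes, and limma's voom none. The list's median there was 0.02 beside -0.001 over all genes. In anti-IL-8 against control the list's median was 0.081 beside -0.02 over all genes. There 5 of the list were called, 2 higher and 3 lower, beside 20.7% of all genes. That count was 2 without control replicate 2 or 3 or anti-IL-8 replicate 1 or 3, and 10 without OE-MMP28 replicate 2. Over all genes those fits called 7.94% to 8.48% and 26.2%.

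Of 30 tested angiogenic factors outside the VEGF family, 5 fell and none rose in OE-MMP28 against control, in which 2.64% of all genes were called lower. They included TIE1, a receptor-like kinase of the angiopoietin system, at 97.5 CPM ± 16.8 (SD, n = 3) in control and 40.2 ± 8.56 in OE-MMP28 (log2 fold change -1.28 ± 0.18, SE, adjusted p = 0.00025 in edgeR's quasi-likelihood test). TYMP, thymidine phosphorylase, went from 72.4 ± 12.6 to 30.0 ± 9.16 CPM (-1.27 ± 0.19, adjusted p = 4e-04). CYR61, a matricellular protein, went from 28.6 ± 3.57 to 14.8 ± 2.69 CPM (-0.94 ± 0.16, adjusted p = 0.0013). AREG, a ligand of the epidermal growth factor receptor, went from 121 ± 9.85 to 68.8 ± 1.95 CPM (-0.82 ± 0.17, adjusted p = 0.0084) and lost its call without control replicate 3 (adjusted p = 0.054). The list's median was -0.18 beside 0.023 over all genes, and its count was 3 to 6 with 1 library left out, the lowest without control replicate 3. Neither antibody gave a call of the list against OE-MMP28 by edgeR. An unadjusted p under 0.05 was found for 8 genes with anti-VEGFA and 13 with anti-IL-8, against 18.8% and 29.3% of all genes. In those comparisons DESeq2 called 1 and 7 genes, beside 429 and 2259 of all 16046 genes, and limma's voom none. Without OE-MMP28 replicate 3 edgeR called 2 and 11, beside 8.48% and 25% of all genes. Against control, 5 genes were lower and none higher with anti-VEGFA, where 5.37% of all genes were lower. With anti-IL-8, 11 were lower and 2 higher, where 10.9% and 9.77% of all genes were, a count that fell to 7 without anti-IL-8 replicate 1. The 5 became 3 without control replicate 1. AREG (-0.97 ± 0.17, adjusted p = 0.0014) and CYR61 (-0.79 ± 0.16, adjusted p = 0.0043) were among those lower with anti-VEGFA.

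Early genes known to follow VEGF signalling in other cells were read for a response to the antibody. The labels give no series of times after the antibody was added, so an early response that had passed could not be seen. All 26 were tested, and in anti-VEGFA against OE-MMP28, 1 rose and 2 fell by edgeR's quasi-likelihood test, in a comparison in which 0.343% of all genes were called. DESeq2 called 11, beside 429 of all 16046 genes, and limma's voom 3, beside 0.436% of them. FOS, a subunit of the transcription factor AP-1, fell from 624 CPM ± 42.4 (SD, n = 3) to 302 ± 21.0 (log2 fold change -1.05 ± 0.16, SE, adjusted p = 0.01). Its relative FOSB fell from 50.3 ± 12.7 to 20.5 ± 4.08 CPM (-1.30 ± 0.26, adjusted p = 0.038). NR4A1, an orphan nuclear receptor, rose from 4.01 ± 1.21 to 10.7 ± 1.101 CPM (1.41 ± 0.23, adjusted p = 0.012). An unadjusted p under 0.05 was found for 8 higher and 6 lower genes of the list, against 18.8% of all genes in either direction. The list's median was 0.027 beside -0.001 over all genes. RCAN1, a target of the calcineurin pathway that KDR uses in endothelium, was at -0.054 ± 0.11 (adjusted p = 0.83), and EGR1 at -0.23 ± 0.17 (adjusted p = 0.48). FOS and NR4A1 were each called in 10 of 12 fits with 1 library left out, and FOSB in 5. FOS lost its call without OE-MMP28 replicate 1 (adjusted p = 0.068), NR4A1 without OE-MMP28 replicate 2 (0.085), and both without anti-VEGFA replicate 1 (0.058 each). FOSB lost it without control replicate 3, OE-MMP28 replicate 1 or 2, anti-IL-8 replicate 2 or any 1 of the anti-VEGFA libraries, with adjusted p-values of up to 0.16. Without anti-VEGFA replicate 1 none of the list was called, and without OE-MMP28 replicate 3, 13 were. Over all genes those fits called 0.0671% and 8.48%. All 3 were called with GC and length offsets, and none in the fit of these 2 groups alone (adjusted p of 0.051 to 0.058). FOSB was not called with the replicate number as a block (adjusted p = 0.064) or on FPKM values (0.087 and 0.099) either. The list also had calls against control with both antibodies. With anti-IL-8, 2 were higher and 9 lower, where 20.7% of all genes were called, and FOSB (-1.44 ± 0.25, adjusted p = 0.0012) and FOS (-0.69 ± 0.16, adjusted p = 0.0084) were among the lower ones. With anti-VEGFA, 3 were higher and 7 lower, where 11% of all genes were called, among them FOSB (-2.03 ± 0.26, adjusted p = 5.3e-05) and FOS (-1.34 ± 0.165, adjusted p = 3.6e-05). In anti-IL-8 against OE-MMP28, FOS was at -0.41 ± 0.16 (adjusted p = 0.11) and FOSB at -0.70 ± 0.25 (0.087), and in anti-VEGFA against anti-IL-8 FOS was at -0.64 ± 0.16 (adjusted p = 0.1) and FOSB at -0.59 ± 0.26 (0.3). Between the antibodies, where 0.199% of all genes were called, NR4A2 (1.60 ± 0.20, adjusted p = 0.0023) and NR4A1 (1.504 ± 0.231, adjusted p = 0.0075) were higher with anti-VEGFA. NR4A1 was not called there without anti-IL-8 replicate 1 (adjusted p = 0.093) or 3 (0.12). In OE-MMP28 against control, where 2.64% of all genes were called lower, 2 genes of the list were, ATF3 (-0.51 ± 0.11, adjusted p = 0.015) and NR4A3 (-0.72 ± 0.19, adjusted p = 0.044). ATF3 lost its call without control replicate 1 (adjusted p = 0.096), control replicate 2 (0.1) or OE-MMP28 replicate 1 (0.069), and NR4A3 kept its call in 3 of 12 such fits, those without OE-MMP28 replicate 2 or anti-VEGFA replicate 1 or 2.

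The genes whose pattern over the 12 libraries was most like that of VEGFA were BMP6 (Pearson's r of log2 CPM = 0.942), FZD1 (0.925), S1PR3 (0.922), NUAK1 (0.903) and ADAMTS1 (0.902), out of 11385 genes with a mean of at least 50 counts. For FLT1 they were SNX13 (0.956), SLC1A3 (0.955), ARMT1 (0.953), LBR (0.953) and ATP8B4 (0.951). These values describe 12 libraries that also share depth and base composition, and they carry no test.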

How the data were processed

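RNA of TAMs was sequenced by the authors from 12 libraries, and groups were taken from the sample titles. Per the labels, reads were aligned with HISAT2 2.0.5 and counted with featureCounts 1.5.0-p3. The deposited table gives raw read counts per gene for 58735 genes whose coordinates equal those of GENCODE 29 (GRCh38), and FPKM values computed by the authors. The deposited table also holds the authors' own comparisons (fold changes with their p-values), which were not used. No column of sample values was left unmapped (0). The library kit is not stated to keep strand, so reads of overlapping antisense genes cannot be separated.

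Counts were scaled by TMM and filtered with filterByExpr in edgeR 4.0.16 (R 4.3.3), and 16046 genes were tested with the quasi-likelihood test in 1 fit of 4 group coefficients. The study's methods name limma without a count model, and edgeR was used because the values are counts. Log2 CPM values use a prior count of 2, and fold changes use the default of edgeR's fit. P-values were adjusted by the Benjamini-Hochberg method over all genes, with calls at 0.05. Confidence intervals use the fit's SE and degrees of freedom, and count floors of 3 cover counting error only. Within-group chi-square values of 6.46 to 98.6 per gene showed no library deposited more than once inside a group. Pairs of libraries from different groups were not compared in this way.

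The members and gene lists were chosen with earlier results of these data known. All 9 members were named. From each list and comparison, up to 4 called genes of largest absolute change could be named, provided their mean count reached 50 in either group, other genes of the lists being chosen after their values were seen. For VEGFA and FLT1, the 5 genes of most similar pattern were named. Alternatives were DESeq2 1.42.0, limma 3.58.1 (voom, and FPKM with pseudocounts of 1 and 0.1 on the log2 scale), other scalings and filters, 2 groups fitted alone, a block for the replicate number and each library left out. GC content and length offsets and the mitochondrial share as a covariate were added after values were seen. The fits of edgeR, voom and DESeq2, the replicate block and the GC and length offsets were also run on simulated counts. Only OE-MMP28 against control was scored there, the other alternatives were not run, and the outcome is not given here. Promoters were matched by symbol for 6 of 9 members. Figures were drawn with Python 3.11.15, pandas 2.3.3 and matplotlib 3.10.9.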

Additional observations from a re-analysis of the deposited data

How the results depend on the processing

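Of the 6 counts of called members, those of OE-MMP28 against control and of anti-VEGFA against anti-IL-8 were 0 under every alternative run. Over all genes their calls went from 507 to 902 with the offsets and 295 to 641 with 1 library left out (lowest without control replicate 1), and from 32 to 252 with DESeq2, 277 with no filter, 172 with the offsets, 176 with the mitochondrial share and 3 to 112 with 1 library left out (lowest without anti-IL-8 replicate 1, highest without OE-MMP28 replicate 2). Anti-IL-8 against OE-MMP28 gave 3 with DESeq2, 3 with the mitochondrial share as a covariate, 1 with no filter and 0 to 3 with 1 library left out. Over all genes its calls went from 0 to 2259 with DESeq2, 1438 with no filter, 795 with the replicate block and 1739 with the mitochondrial share. With 1 library left out they were 0 to 4125, the highest without OE-MMP28 replicate 3. Anti-VEGFA against OE-MMP28 gave 0 to 1 with 1 library left out, and over all genes 55, 429 with DESeq2, 1 in the fit of 2 groups, 400 with no filter, 310 with the mitochondrial share and 8 to 1402 with 1 library left out, the highest without OE-MMP28 replicate 3. Anti-IL-8 against control gave 4 in the fit of 2 groups (VEGFC added), 1 (VEGFC) with GC content and length offsets, 2 (NRP1 lost) with DESeq2's size factors, no filter, the replicate block and both FPKM settings, and 0 to 3 with 1 library left out. Anti-VEGFA against control gave 1 in the fit of 2 groups (VEGFB), 1 with GC content and length offsets, 1 with the mitochondrial share (NRP2 in both), and 0 to 1 with 1 library left out. Correlations of same-numbered deviations between groups ran from -0.16 to 0.237. Libraries of different number were not compared, so these values cannot decide whether the replicate numbers pair the libraries. With the replicate number as a block, anti-IL-8 against OE-MMP28 gave 1 call (VEGFB) and anti-VEGFA against control 1 (NRP2). The cause of these differences was not tested.

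Some log2 fold changes changed sign, most of them near 0 and VEGFB from 0.35 and 0.42 in the anti-VEGFA comparisons. NRP1 in OE-MMP28 against control was 0.006 with GC content and length offsets, 0.049 with the mitochondrial share and -0.121 to 0.089 with 1 library left out, and VEGFB there was -0.157 to 0.291. In anti-VEGFA against OE-MMP28, VEGFC was -0.006 with no filter, -0.003 and -0.004 on FPKM, -0.011 with the offsets and -0.126 to 0.081 with 1 library left out, and the offsets gave VEGFA -0.065 and VEGFB -0.102. In anti-VEGFA against control, VEGFA was -0.002 with library totals, -0.104 with the offsets and -0.072 to 0.185 with 1 library left out, and VEGFB -0.085 with the offsets. NRP2 in anti-IL-8 against control was -0.003 to 0.219. No other member changed sign under these alternatives. With 3 libraries a group, changes inside the intervals given could not be seen.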

Other observations

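VEGFD, the ligand of the family that was not among the 9 genes, had 1 to 12 counts in a library and was at the limit of detection like PGF. VEGFA shares 188 exonic bases with the antisense gene AL136131.3, which had 0 counts in every library. NRP1 shares 561 exonic bases with AL121748.2 (0 to 5 counts) and NRP2 147 with AC007362.1 (0 to 1 counts). Among the marker lists, MARCO, a scavenger receptor of macrophages, was called higher than control in OE-MMP28 (log2 fold change 1.39 ± 0.23, SE, adjusted p = 0.0012 in edgeR's quasi-likelihood test), with anti-IL-8 (1.61 ± 0.23, adjusted p = 0.00017) and with anti-VEGFA (1.12 ± 0.23, adjusted p = 0.0053). Of 4 tested epithelial markers, MUC1 was called in OE-MMP28 against control (-1.01 ± 0.25, adjusted p = 0.034).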
